A study of Mus musculus with 10 samples.

Results

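Among 5 control blood libraries of a metformin study in mice, 2 were led by the heart gene Myl2, a regulatory light chain of cardiac myosin, and 3 were led by the red blood cell precursor gene Alas2. The controls with a Myl2 value of at least 10 on the log2 FPKM scale (read fragments scaled to transcript length and to the mapped total of the library) were control 1 and control 5, and those under 10 were controls 2, 3 and 4. The 2 libraries inside the limit both held Myl2 at 12.48, and the highest value outside it was 4.24, in control 4. The description covers every gene that reached a log2 value of 1 in 2 or more of the 5 controls, which left 4348 of the 8904 genes in the table. The libraries came from adult C57BL/6 mice, 5 given PBS and 5 given metformin for 30 days, and the labels name blood as the tissue of all 10. The paper's methods give metformin by tail vein injection or by mouth, at a main dose and at a higher and a lower one. They do not state which route and dose the mice of these libraries had. Removal of the eyeball is given there as the way in which blood was drawn for a plasma assay. Both classes of controls carry the same labels, genotype and treatment, so no label sets them apart, and the split was made by Myl2 alone. Each library was taken as 1 mouse, and the SDs measure only the spread between these libraries, which may be technical.

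The split uses measured values of the same 5 libraries. Differences are therefore given as sizes and as the presence or absence of overlap, with no test. A gene is called higher in one class when all of its libraries lie above all libraries of the other and the class means differ by at least 1 on the log2 scale. Read counts were not used and the depth of the libraries is unknown. The highest value is 12.48 in every library and the library medians lie between 0.78 and 0.79, so that a shift shared by all genes cannot be seen. The lowest value of a library was shared by 7 genes in control 5, by 45 in control 1, by 183 to 387 in controls 2, 3 and 4, and by 303 to 471 in the metformin libraries. In bulk RNA, fewer cells of a type and less RNA per cell cannot be told apart.

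Heart muscle is built from striated cells whose thick filaments carry cardiac myosin and whose thin filaments are switched by the cardiac troponins, and it draws most of its energy from mitochondrial oxidation of fatty acids. Atrial muscle cells differ from ventricular ones in their myosin light chains and in the hormone they store. Red blood cells leave the marrow as reticulocytes, which still hold messenger RNA for heme synthesis, for ubiquitin enzymes and for the removal of mitochondria, and which make up a large part of the RNA of whole blood. The alpha- and beta-globin genes themselves were not analysed here.

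The markers of the split showed the contrast in each library. Myl2 (chr5:122100951-122113472, GRCm38, + strand) stood at 12.48 in control 1 and at 12.48 in control 5, against 0.46, 3.35 and 4.24 in controls 2, 3 and 4. Tnni3, the inhibitory subunit of cardiac troponin (chr7:4518305-4524229, - strand), stood at 11.31 and 11.50 against 0.11, 2.50 and 3.82. Myh6, the fast cardiac myosin heavy chain (chr14:54941921-54966927, - strand), stood at 10.51 and 9.73 against 0.18, 1.60 and 2.31. For each of these 3 genes, controls 1 and 5 were close to each other and far above the rest. Nppa, which encodes the atrial natriuretic peptide (chr4:148000722-148002079, + strand), stood at 6.76 in control 1 and at 10.73 in control 5, against 0.11, 1.21 and 1.88. Control 5 was the highest library for this gene by 3.97. Alas2, the enzyme that starts heme synthesis in red cell precursors (chrX:150547375-150570638, + strand), stood at 1.08 in control 1 and at 8.28 in control 5, and at 12.48 in each of controls 2, 3 and 4. Bpgm, which makes the bisphosphoglycerate that loosens oxygen from hemoglobin (chr6:34476207-34505613, + strand), stood at 0.87 and 6.36 against 10.87, 11.00 and 11.17. Control 5 held both red cell markers at a level between control 1 and the other controls. Control 1 went against its label, because heart genes led it while the lists of red cell precursor, B cell and neutrophil markers had means of 0.70, 0.26 and 0.31 there, and control 5 held heart and blood markers together. In the 5 metformin libraries Alas2 was also at 12.48, Bpgm ranged from 11.00 to 11.50 and Myl2 from 1.45 to 2.26.

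**Figure D1:**
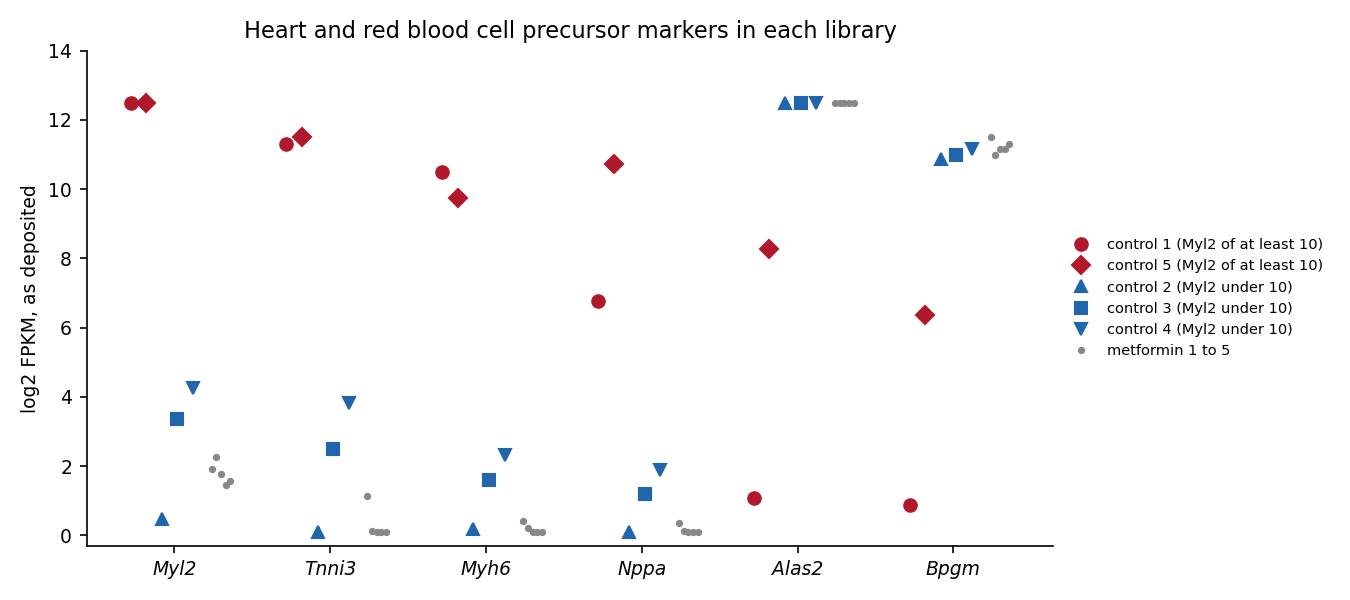
Log2 FPKM of the 6 markers in every library: each red symbol is 1 control with Myl2 of at least 10, each blue symbol 1 control with Myl2 under 10 and each grey dot 1 metformin library. Control 5 combines Myl2 at 12.48 with Alas2 at 8.28, while control 1 has Alas2 at 1.08.

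The promoters of the heart genes Myh6 and Nppa and of the leading red cell gene Alas2 are shown because these markers differ between the 2 classes. The sequences are from RefSeq, build GRCm38.p6, and run from 250 bases before to 50 bases after the start of a RefSeq transcript. That start lay 320 bases inside the GENCODE gene span given above for Myh6, so that the whole Myh6 window lies within the gene, and 42 bases inside it for Alas2, and it was the same for Nppa. Capitals mark the letters AGATAA (the core bound by GATA factors), CACCC (the core bound by erythroid and other Kruppel-like factors) and TATAAA on either strand, overlapping matches included.
Myh6, chr14:54966558-54966857, - strand: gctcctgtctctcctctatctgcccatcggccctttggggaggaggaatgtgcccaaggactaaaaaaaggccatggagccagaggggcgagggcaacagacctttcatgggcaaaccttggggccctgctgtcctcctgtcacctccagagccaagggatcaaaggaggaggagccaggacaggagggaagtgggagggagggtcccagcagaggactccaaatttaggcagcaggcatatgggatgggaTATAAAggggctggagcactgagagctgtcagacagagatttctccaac
Nppa, chr4:148000472-148000771, + strand: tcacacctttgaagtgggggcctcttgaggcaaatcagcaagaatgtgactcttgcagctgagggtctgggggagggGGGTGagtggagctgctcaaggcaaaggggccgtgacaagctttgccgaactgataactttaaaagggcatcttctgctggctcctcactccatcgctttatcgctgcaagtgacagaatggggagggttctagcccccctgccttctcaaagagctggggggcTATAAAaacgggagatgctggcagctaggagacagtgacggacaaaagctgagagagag
Alas2, chrX:150547167-150547466, + strand: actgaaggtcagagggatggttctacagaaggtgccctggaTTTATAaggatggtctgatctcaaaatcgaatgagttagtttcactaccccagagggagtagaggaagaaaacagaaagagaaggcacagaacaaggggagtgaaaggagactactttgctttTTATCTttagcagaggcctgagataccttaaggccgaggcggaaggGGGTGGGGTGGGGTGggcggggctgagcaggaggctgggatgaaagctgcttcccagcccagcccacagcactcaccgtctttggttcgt
The Alas2 window held 1 AGATAA match, 3 adjacent CACCC matches and 1 TATAAA match, all on the reverse strand. The Myh6 window held 1 TATAAA match, and the Nppa window held 1 TATAAA and 1 CACCC match. The CArG box and the MEF2 site, which serum response factor and the MEF2 factors bind in muscle genes, were searched by their consensus on both strands and were not found in these 3 windows. Over all promoters of the genes called higher in controls 1 and 5, 3.03% of 758 held a CArG box, against 1.70% of 590 for the genes called higher in controls 2, 3 and 4, 1.52% of 3293 for the other genes kept and 1.63% of all 32851 promoters of the table. The MEF2 site was in 2.77%, 1.53%, 1.49% and 3.19% of the same sets. AGATAA was in 8.05%, 7.80%, 5.98% and 11.2%, and CACCC in 65.6%, 66.8%, 64.1% and 57.5%. Promoters were matched by symbol, which found 580 of the 727 and 435 of the 564 genes called, and a gene can have several promoters. These shares are descriptions of letters in fixed windows, and no difference between them was tested.

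The contrast reached across the table. Of the genes kept, 727 (16.7%) were higher in controls 1 and 5 and 564 (13.0%) were higher in controls 2, 3 and 4. The counts of called genes in each list below are to be read against these shares. Without the limit on the difference, 1485 genes (34.2%) lay above and 1420 (32.7%) below with no overlap. The median difference was 1.66 over the higher genes and -1.68 over the lower ones, and -0.04 over all genes kept. Differences of at least 4 were found for 78 genes in the first set and for 74 in the second, and of at least 6 for 19 and 16. Of the 727 genes, 338 passed the filter on low values only through controls 1 and 5, and of the 564 genes, 173 passed only through controls 2, 3 and 4. These had to differ once they passed. Leaving out control 1 lowered the first count to 337 and leaving out control 5 lowered it to 474, while the second count rose to 851 without control 5. With control 1 or control 5 left out, none of the 338 genes could pass the filter. The 2 falls thus follow in part from the filter and do not measure dependence on 1 library alone. Centring on the cytosolic ribosomal proteins moved the median difference of all genes to -0.44 and the split from 727 and 564 to 462 and 1104 genes. Protein-coding genes made up 716 and 547 of the calls, and the remaining ones included 6 immunoglobulin and 3 T cell receptor constant region genes, all of them higher in controls 2, 3 and 4.

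**Figure D2:**
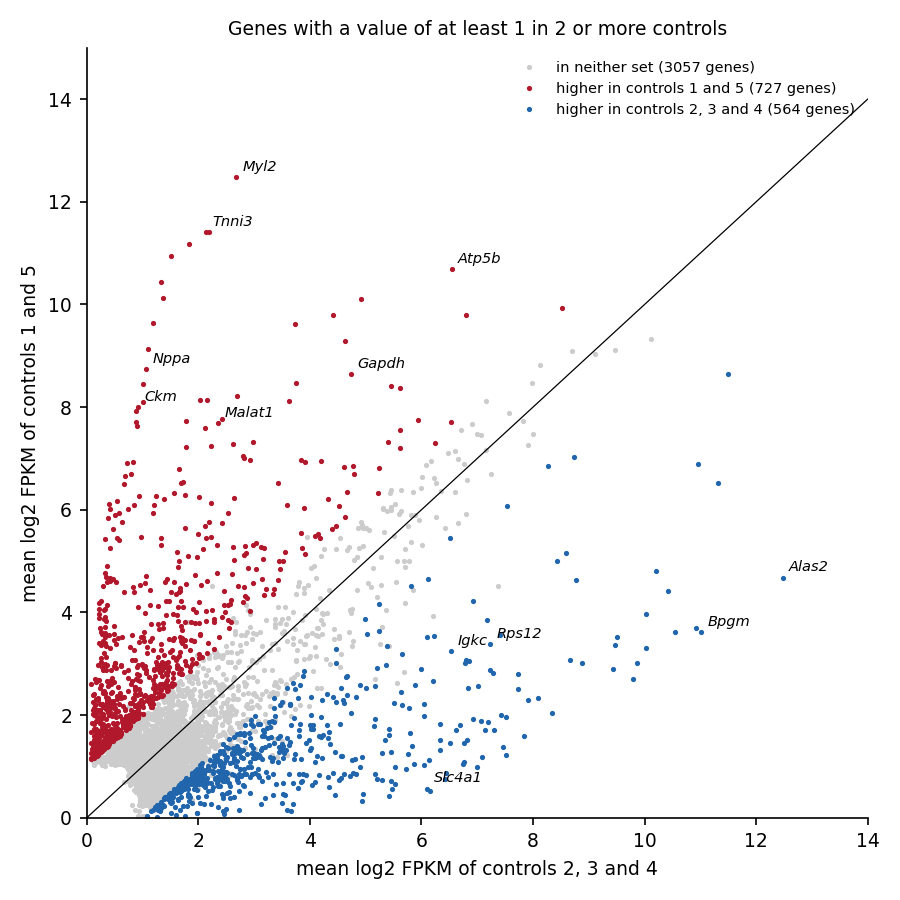
Mean log2 FPKM of controls 1 and 5 on the vertical axis against that of controls 2, 3 and 4 on the horizontal axis for the 4348 genes kept, with the diagonal of equal means. The 727 red genes were higher in controls 1 and 5 and the 564 blue genes were higher in the other 3 controls, and Myl2 and Alas2 lie at the 2 far ends.

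Rank correlations across the 4348 genes, which share these libraries and are not independent replicates, described the same split. Of these genes, 649 passed the filter only through controls 1 and 5 and 780 only through controls 2, 3 and 4. Such genes are low in 1 class by selection, which lowers the coefficients between the classes. Spearman's coefficient was 0.76 between controls 1 and 5 and 0.77 to 0.80 among controls 2, 3 and 4. It was 0.04 to 0.12 between control 1 and the 3 other controls, and 0.30 to 0.37 between control 5 and these. Among the 50 highest genes, control 1 and control 5 each held 8 of the listed heart contractile genes and 15 and 10 subunits of the respiratory complexes and ATP synthase, while the other 8 libraries held none. Red cell precursor genes took 0 of the 50 places in control 1, 1 in control 5, 10 to 12 in controls 2, 3 and 4 and 11 to 13 in the metformin libraries.

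Contractile proteins separated the 2 classes throughout. Of 28 measured genes, 27 passed the filter, and all 27 were higher in controls 1 and 5, by 1.11 to 9.79. The list holds Myl2, the gene that set the split, and the 9.79 is its own difference. Members that passed the filter only through controls 1 and 5 had to lie above the other controls, so the count is a description. The mean of the 28 genes was 5.96 in control 1 and 5.65 in control 5, against 0.38, 0.95 and 1.29 in controls 2, 3 and 4. Myl3, the essential light chain of the ventricle, stood at 11.00 and 10.87 against 0.11, 1.85 and 2.58. Tnnt2, which anchors troponin to tropomyosin, stood at 11.50 and 11.31 against 0.11, 2.62 and 3.84. Tcap, which caps titin at the Z disc, stood at 9.87 and 11.00 against 0.25, 1.62 and 2.12. Each of these sarcomere genes was at or near the lowest value of the library in control 2 and within 2 log2 units of the top in controls 1 and 5, except Tcap in control 1. Tnnc1, the calcium-binding subunit of cardiac troponin, stood at 9.48 and 8.77 against 0.11, 1.36 and 1.81. Mhrt, a noncoding RNA transcribed opposite to the cardiac myosin heavy chain genes, stood at 8.46 and 6.96 against 0.11, 1.08 and 1.47. The use of strand in the counting is not stated, so that Mhrt and the gene on the other strand cannot be told apart. Within controls 2, 3 and 4, 17 of the 28 contractile genes were ordered with control 4 highest and control 2 lowest, the order shown by Myl2 and Tnni3.

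Calcium handling genes followed with smaller differences. Of 22 measured genes, 15 passed the filter and 12 were higher in controls 1 and 5, with a median of 1.70. This median was 3.33 without control 1 and 3.65 without control 5, when other genes pass the filter. Pln, the inhibitor of the calcium pump of the sarcoplasmic reticulum, stood at 5.36 and 4.45 against 0.11, 0.53 and 0.48. Atp2a2, that pump itself, stood at 5.24 and 5.40 against 0.90, 1.36 and 1.74. Hrc, a calcium-binding protein of the reticulum, stood at 4.89 and 4.49 against 0.19, 0.34 and 0.49. All 3 were well clear of overlap. Fxyd1, a regulator of the sodium pump in heart, stood at 6.43 and 6.13 against 0.67, 1.54 and 1.55.

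Most genes of energy supply were also higher in controls 1 and 5. Mb, the oxygen store myoglobin, stood at 11.17 in both controls 1 and 5 against 0.25, 2.20 and 3.07. Ckm, muscle creatine kinase, stood at 8.0 in both against 0.50, 1.09 and 1.19. In the list of creatine kinase, oxygen and energy carriers, all 16 genes passed the filter and 15 were higher. Subunits of respiratory complex I were higher for 34 of 37, with a median of 2.98, those of complexes III and IV for 19 of 23 that passed, and those of ATP synthase for 14 of 16 that passed. Ndufa5, a complex I subunit, stood at 8.87 and 7.42 against 2.04, 1.71 and 2.72. Uqcrq, a complex III subunit, stood at 10.11 and 9.11 against 4.04, 2.75 and 4.42. Atp5e, a subunit of the rotor stalk of ATP synthase, stood at 10.73 and 9.48 against 5.25, 4.60 and 4.91. These 3 subunits stood at 1.71 or above in every control. Against the direction of their lists, Cox6a1, the cytochrome oxidase subunit found outside muscle, was higher in controls 2, 3 and 4 at 5.49 to 6.47 against 4.76 and 4.53, and so was Atpif1, the inhibitor of ATP synthase, at 5.41 to 6.29 against 4.63 and 4.41.

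Fatty acid oxidation genes were higher for 17 of 23 that passed, with a median of 1.69, and citric acid cycle genes for 16 of 22, with a median of 1.53. Over all genes kept, 16.7% were higher. Etfb, which passes electrons from the acyl-CoA dehydrogenases to the respiratory chain, stood at 8.06 and 7.39 against 1.85, 1.82 and 1.65. Acadvl, the dehydrogenase for very long chains, stood at 5.61 and 5.35 against 0.85, 0.90 and 1.18. Idh2, the mitochondrial isocitrate dehydrogenase that makes NADPH, stood at 6.04 and 6.49 against 0.65, 1.09 and 1.06. In these 3 genes the spread within a class was under 1 and the classes were 4.50 to 5.95 apart. Acsl1, which activates long-chain fatty acids, was the exception in its list, at 1.47 and 1.33 against 4.10, 2.30 and 4.18.

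Glycolytic genes differed between control libraries that had the same treatment. Of 21 measured genes, 20 passed the filter, 11 were higher in controls 1 and 5 and 1, Bpgm, was higher in the other controls. Gapdh, which oxidises glyceraldehyde phosphate, stood at 8.66 and 8.61 against 4.09, 4.95 and 5.18, and its reads can be shared with its many pseudogenes. Pgam2, the muscle phosphoglycerate mutase, stood at 6.97 and 6.44 against 0.34, 0.77 and 1.27. Eno3, the muscle enolase, stood at 6.00 and 5.89 against 1.12, 1.14 and 1.30. The classes did not overlap for any of the 3. The metformin libraries lay between the classes for these genes, at 5.52 to 5.95 for Gapdh, 3.27 to 4.01 for Pgam2 and 3.81 to 4.72 for Eno3.

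Most listed genes of the vessel wall and connective tissue that passed the filter were also higher in controls 1 and 5. Of 19 endothelial genes that passed, 14 were higher in controls 1 and 5, with a median of 1.42, and 1, Ets1, a transcription factor also used by lymphocytes, was higher in the other controls. Without control 1 this median was 0.61, and genes that had passed only through controls 1 and 5 no longer passed the filter. Fabp4, a fatty acid binding protein of capillary endothelium and fat cells, stood at 7.97 and 5.85 against 0.33, 0.85 and 0.98. Egfl7, a secreted endothelial protein, stood at 6.89 and 4.80 against 0.11, 0.63 and 0.41. Gpihbp1, which carries lipoprotein lipase across capillaries, stood at 3.85 and 2.90 against 0.11, 0.25 and 0.42. For each of these endothelial genes control 1 was above control 5. Matrix genes were higher for 8 of 11 that passed, against 16.7% of all genes kept. They were led by Mgp, an inhibitor of vessel calcification, at 7.18 and 5.80 against 0.47, 0.82 and 0.73. The 4 smooth muscle and pericyte genes and the 4 fat cell genes that passed were all higher, among them Acta2, smooth muscle actin, at 5.08 and 1.97 against 0.45, 0.36 and 0.17, and Lpl, lipoprotein lipase, at 5.13 and 4.11 against 0.18, 0.44 and 0.64. All 4 of these fat cell genes, Acta2, Egfl7, Gpihbp1 and Mgp passed the filter only through controls 1 and 5. Any member that passed in this way had to lie above the other controls, so the counts are descriptions. The lists overlap, as Fabp4 and Lpl are also in the fatty acid list and Fabp4 in the endothelial list. Another fat cell gene, Cfd, stood at 1.71 and 2.07 in controls 1 and 5 and at 1.80 to 2.47 in the metformin libraries. Of the 22 monocyte and macrophage genes that passed, 3 were higher in controls 1 and 5, 3 were higher in controls 2, 3 and 4 and 16 were called in neither direction, with a median of -0.43 that turned to 0.09 without control 1. Both counts are near the shares over all genes kept, 16.7% and 13.0%, and so do not set this list apart. The genes C1qa, C1qb and C1qc, which encode the complement component C1q made by resident macrophages, were higher in controls 1 and 5, with C1qa at 2.35 and 2.98 against 0.42, 0.23 and 0.45, and the lower ones were Ptprc, Laptm5 and Ctss.

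Several genes outside the lists, chosen after their values were seen, went the same way. Gpx3, a secreted glutathione peroxidase, stood at 5.87 and 6.37 against 0.11, 0.49 and 0.62. Vegfa, the endothelial growth factor, stood at 3.75 and 3.71 against 0.46, 0.43 and 0.57. Mt1, a metallothionein, stood at 5.23 and 5.83 against 1.60, 1.52 and 2.87. The nuclear noncoding RNA Neat1 stood at 9.11 and 7.18 against 1.58, 2.10 and 2.43, and Malat1, of the same kind, stood at 9.35 and 6.03 against 1.92, 2.26 and 2.88. The 2 nuclear RNAs were higher in control 1 than in control 5 by 1.92 and 3.33.

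On the other side of the split, red cell precursor genes led. Of 43 measured genes, 37 passed the filter, 33 were higher in controls 2, 3 and 4 and 1 was higher in controls 1 and 5. The exception was Aqp1, a water channel of red cells that endothelium also makes, at 3.10 and 2.54 against 1.29, 2.24 and 1.12. The mean of the 43 genes was 0.70 in control 1 and 1.89 in control 5, against 4.89, 4.32 and 4.95. Mkrn1, a ubiquitin ligase, stood at 1.08 and 6.32 against 11.00, 10.87 and 10.87. Slc4a1, the anion exchanger of the red cell membrane, stood at 0.09 and 1.05 against 6.34, 5.20 and 6.77. For the most abundant of these genes control 5 was intermediate, and for Slc4a1 it was near control 1. Gata1, the transcription factor of the red cell lineage, stood at 0.05 and 0.25 against 1.07, 1.53 and 0.94, and Klf1 was not analysed here. The theta-globin genes Hbq1a and Hbq1b stood at 0.03 to 1.21 in controls 1 and 5 and at 4.45 to 6.39 in controls 2, 3 and 4, and their reads may be shared between these near-identical copies.

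Heme and iron genes divided by step. Of 27 measured genes, 16 passed the filter, 10 were higher in controls 2, 3 and 4 and none was higher in controls 1 and 5. The first and last enzymes of heme synthesis had the largest differences. Fech, which inserts iron to complete heme, stood at 0.89 and 3.21 against 8.35, 8.0 and 8.66. Slc25a39, a mitochondrial carrier of glutathione needed for iron-sulfur clusters, stood at 2.21 and 4.85 against 9.64, 9.35 and 9.54. Blvrb, a heme-breakdown reductase abundant in red cells, stood at 1.44 and 2.48 against 8.61, 6.39 and 7.54. The middle enzymes Ppox, at 1.69 and 1.39 against 2.20, 0.84 and 1.73, and Alad, at 1.54 and 1.57 against 1.29, 0.77 and 0.87, were called in neither direction. The ferritin chains also differed, with the light chain Ftl1 at 7.16 and 10.11 against 11.50 in each of controls 2, 3 and 4, and the heavy chain Fth1 at 9.22 and 9.02 against 9.35, 10.11 and 8.95, where the classes overlapped.

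Genes that act when red cells mature showed the same side. Of 26 ubiquitin and mitophagy genes that passed the filter, 17 were higher in controls 2, 3 and 4 and 1, Map1lc3a, an autophagosome protein, was higher in controls 1 and 5, at 5.44 and 5.48 against 1.01, 1.38 and 1.59. Ube2l6, a conjugating enzyme for the ubiquitin-like protein Isg15, stood at 0.91 and 6.34 against 10.51, 10.38 and 10.73. Bnip3l, the receptor by which reticulocytes discard mitochondria, stood at 1.21 and 4.58 against 9.54, 9.11 and 9.64. Ubb, a polyubiquitin gene, stood at 5.89 and 7.88 against 11.17, 10.73 and 11.00. Of the antioxidant genes, Gpx1 stood at 3.44 and 6.17 against 10.73, 9.64 and 10.25, and catalase (Cat) at 1.09 and 1.71 against 6.20, 5.17 and 6.14. Interferon-induced and MHC class I genes were higher in controls 2, 3 and 4 for 7 of 19 that passed and higher in controls 1 and 5 for 1, Ifi27l2a. Over all genes kept these shares were 13.0% and 16.7%. Those higher in controls 2, 3 and 4 were led by Rsad2 at 0.56 and 1.68 against 5.83, 5.52 and 7.07 and Isg15 at 0.75 and 3.10 against 7.23, 5.85 and 7.70.

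Of the white blood cell and platelet lists, B cell genes were called for most members and neutrophil and platelet genes for few or none. Over all genes kept, 13.0% were higher in controls 2, 3 and 4. B cell genes were higher in controls 2, 3 and 4 for 19 of 24 that passed, with means of 0.26 in control 1 and 1.94 in control 5 against 2.29, 2.98 and 3.20. Cd79a, a signalling chain of the B cell receptor, stood at 0.12 and 3.52 against 4.07, 4.64 and 4.89. The median difference of the B cell list was -1.70 and was -0.83 without control 1. T and NK cell genes were higher in controls 2, 3 and 4 for 13 of 24 that passed, with Trbc2, a T cell receptor constant region, at 0.27 and 1.89 against 4.01, 2.78 and 3.51. Neutrophil genes were called for 2 of 22, Mxd1 and Grina, and control 5 lay within the range of controls 2, 3 and 4 for 25 of the 27 in the table. S100a9, a calcium-binding protein of neutrophils, stood at 0.36 in control 1 and at 7.50 in control 5, against 8.53, 6.29 and 3.78. The median difference of the neutrophil list was -0.85 and turned to 0.12 without control 1. None of the 19 platelet genes that passed was called, and control 5 was in range for 26 of 27. Ppbp, the platelet basic protein, stood at 0.16 and 5.24 against 3.97, 9.02 and 2.54. Control 1 was the lowest of the 10 libraries for 24 of the 27 neutrophil genes and for 24 of the 25 B cell genes, and Ptprc, which encodes the leukocyte antigen CD45, stood at 0.16 there and at 2.48 in control 5.

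Genes that every cell uses differed less. Cytosolic ribosomal proteins had means of 5.72 and 5.74 in controls 1 and 5 against 5.51, 5.14 and 5.36, and of the 82 genes that passed 15 were higher and 4 lower, with a median of 0.40. Rps15, a small subunit protein, stood at 10.25 and 9.35 against 6.99, 6.79 and 6.61. Rplp0, a stalk protein, stood at 6.32 and 7.72 against 8.95, 8.46 and 8.77. Rpl3l, the form of Rpl3 made in striated muscle, stood at 4.49 and 3.64 against 0.11, 0.28 and 0.27, while Rpl3 was at 5.26 to 5.65 in all 5 controls. The values of ribosomal proteins can share reads with pseudogenes. Rps12 (chr10:23785183-23787275) was at 0.03 in control 1 and at 6.75 to 7.94 in the other 9 libraries, and its processed pseudogene Rps12l1 (chr7:56014016-56014414) was at 5.83 in control 1 and at 0.00 to 0.64 elsewhere, so that the call of Rps12 is uncertain. Mitochondrial ribosomal proteins were higher in controls 1 and 5 for 22 of 55 that passed, with a median of 0.83, and proteasome subunits for 6 of 33, with a median of 0.21, or 0.36 without control 5. For the cytosolic ribosomal proteins and the proteasome, the share called higher is close to the 16.7% over all genes kept. When the values were centred on the cytosolic ribosomal proteins, the median of the mitochondrial ribosomal proteins was 0.43 and that of the proteasome turned to -0.18.

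In pairs of related genes compared inside 1 library, a shift shared by all genes of the library cancels, though a rank-based scaling such as quantile normalization does not. In each of 29 pairs, the first member is a form favoured in heart or other striated muscle or in general use, and the second a form favoured in other cells, in fast muscle or in red cells. Values are per length, so that the members of a pair can be set against each other. The pairs were chosen and ordered with the direction known, and they include the genes Myl2, Tnni3, Alas2 and Bpgm, so that their shared direction is a description. In 5 of the 29 pairs the second member did not pass the filter, and such a pair mostly repeats the value of the first. The first member gained on the second in controls 1 and 5 in 29 of 29 pairs without overlap with controls 2, 3 and 4, and in 14 pairs the order of the members was reversed. Cox6a2, the muscle form of cytochrome oxidase subunit 6A, was above Cox6a1 by 4.97 and 5.01 in controls 1 and 5 and differed from it by -6.36, -4.22 and -4.19 in the other 3 controls. Slc25a4, the ADP/ATP carrier of muscle, minus Slc25a5, the widely used form, was 5.01 and 4.33 against -1.30, -0.48 and -0.58. Actn2, the alpha-actinin of Z discs, minus Actn1 was 3.97 and 3.27 against -1.39, -2.34 and -0.67. Cpt1b, the muscle gate for fatty acids into mitochondria, minus Cpt1a was 3.65 and 3.24 against -0.73, -0.95 and -0.10. In 18 pairs the first member was called higher and the second was not called. Slc25a5 was at 2.71 and 3.15 against 3.15, 2.54 and 3.06, and Pgam1 at 2.22 and 1.81 against 1.80, 1.65 and 1.72. In 3 pairs with a red cell gene only the second member was called, as for Alas1 minus Alas2 at -0.02 and -7.19 against -11.71, -11.93 and -12.01.

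**Figure D3:**
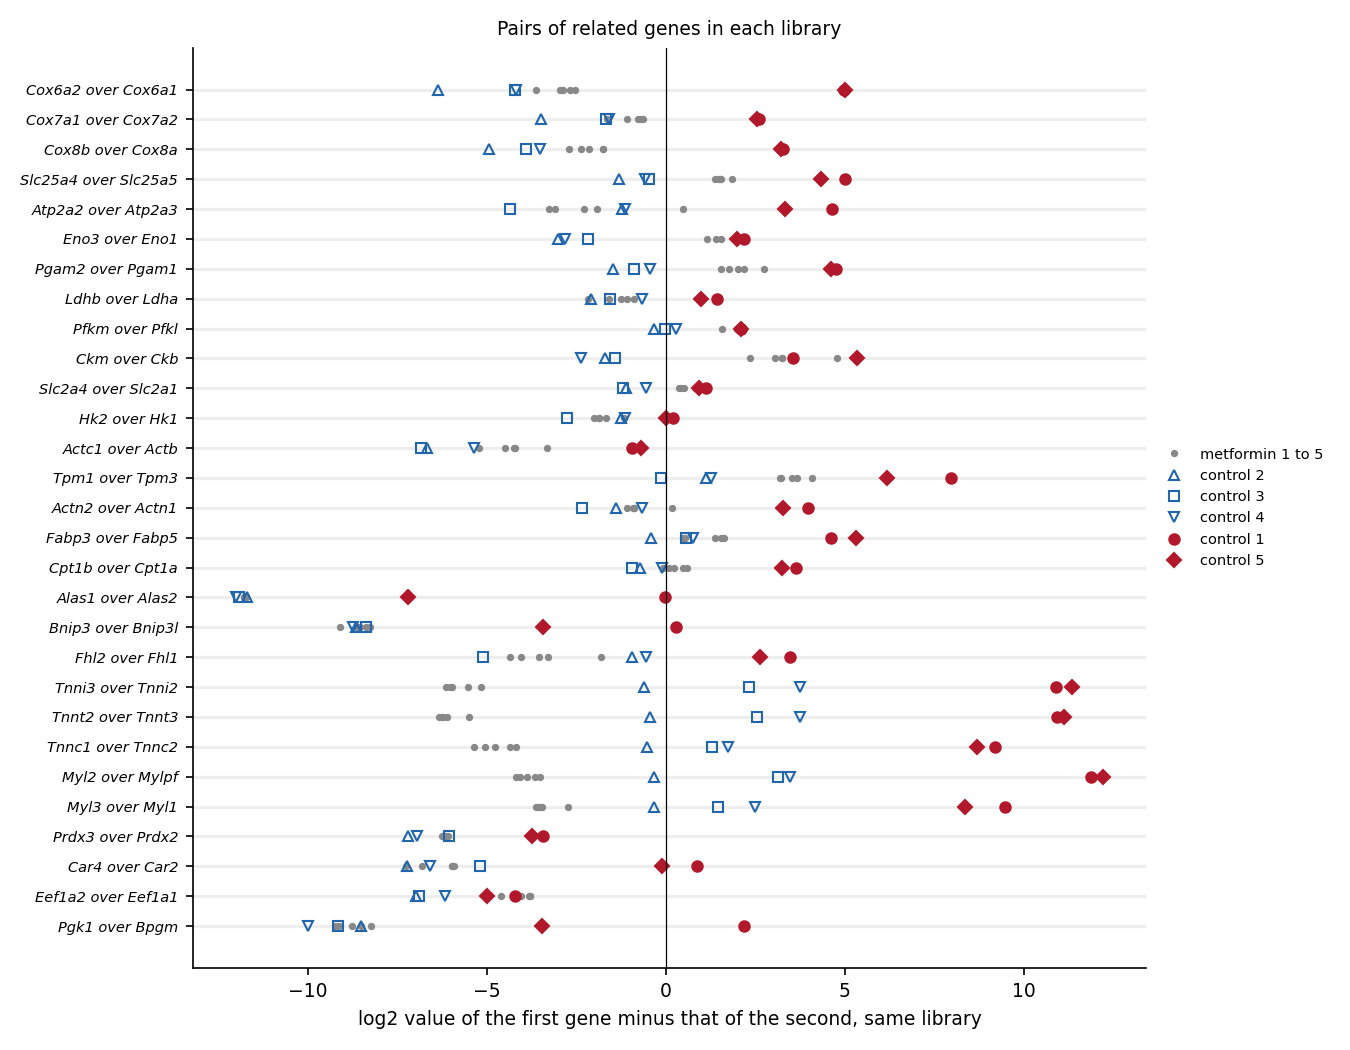
Difference of the log2 values of the members of 29 gene pairs in the same library, with the vertical line at equal values and 1 symbol per library. Controls 1 and 5 in red lie to the right of controls 2, 3 and 4 in blue in all 29 pairs, and the metformin libraries in grey lie to the left of all controls in the 5 pairs of a cardiac and a fast skeletal troponin or myosin chain.

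Controls 1 and 5 were not alike. Each is 1 library, so that the difference has no replicate check. Control 1 was above control 5 by at least 1 for 130 genes (2.99%) and below it for 312 (7.18%), and by at least 2 for 13 (0.299%) and 93 (2.14%). Control 1 lay farther from controls 2, 3 and 4 than control 5 did for 541 of the 727 higher genes and for 486 of the 564 lower genes. Of the 9 atrial genes in the table, 6 were higher in control 5 and 3 in control 1, and the sarcomere gene Tcap was also higher in control 5, by 1.13. Myl7, the atrial regulatory light chain, stood at 6.64 in control 1 and at 10.25 in control 5, against 0.11, 1.42 and 1.52. Myl4, the atrial essential light chain, stood at 5.86 and 9.98 against 0.37, 0.90 and 1.37. Sln, sarcolipin, an inhibitor of the calcium pump in atria, stood at 3.66 and 7.26 against 0.11, 0.54 and 1.0. Control 5 was above every other library by 3.61 to 4.12 for these 3 genes, while the ventricular chain Myl3 differed by 0.13 between controls 1 and 5. Myl2 was at the highest value that every library shares, so that no difference could be seen for it. Nppb, another natriuretic peptide gene, stood at 3.02 in control 1 and at 2.37 in control 5.

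**Figure D4:**
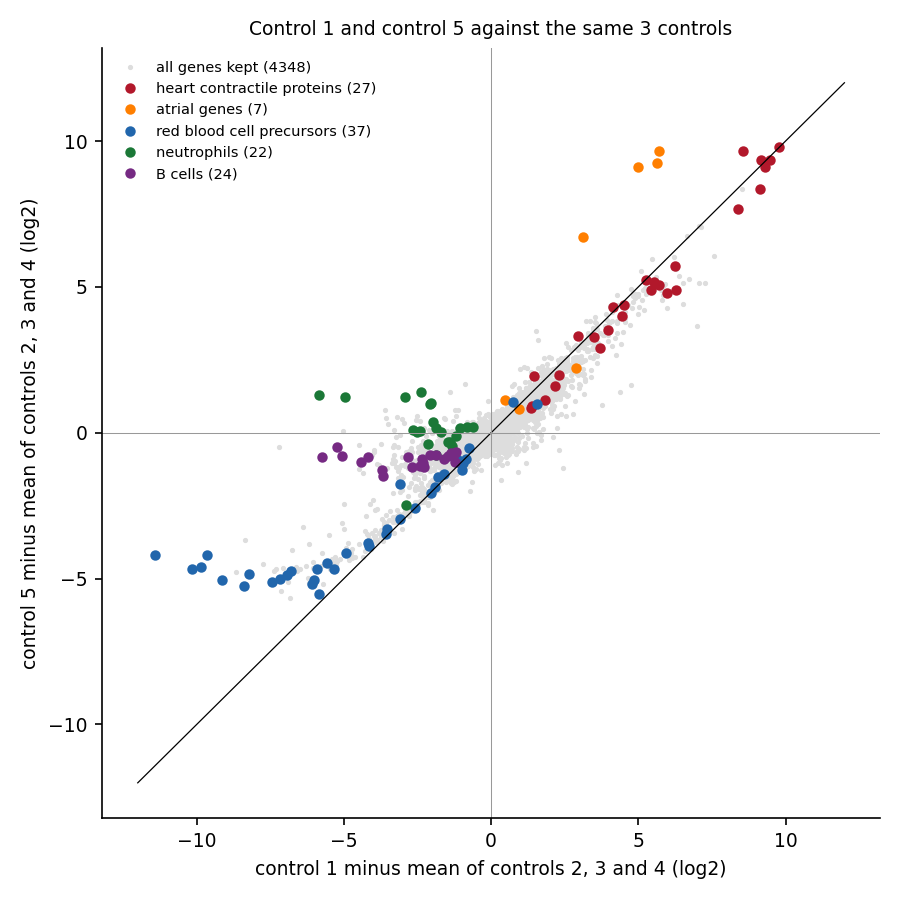
Difference of control 1 (horizontal axis) and of control 5 (vertical axis) from the mean of controls 2, 3 and 4, on the log2 scale, for the 4348 genes kept, with 5 lists in colour and the diagonal of equal differences. Contractile genes lie on the diagonal, 4 atrial genes lie well above it, most neutrophil genes lie near 0 for control 5 and below 0 for control 1, B cell genes lie below 0 for both, and the most abundant red cell genes level off near -5 for control 5. Both axes share the same 3 controls.

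Control 1 was the highest of the 10 libraries for 21 contractile, 27 complex I, 22 endothelial and 22 matrix genes, and also for some genes of other tissues. It stood above all 9 other libraries by at least 1 for 75 genes of the table, against 13 for control 5. Tagln, a smooth muscle protein, stood at 4.70 in control 1, at 1.71 in control 5 and at 0.31 to 0.32 in controls 2, 3 and 4. Ttr, transthyretin, made in liver and choroid plexus, stood at 5.20 and 1.54 against 1.79, 2.65 and 3.82. Mbp, a myelin protein, stood at 4.71 and 2.48 against 3.19, 3.50 and 3.90, with up to 4.31 in the metformin libraries, and Snap25, a synaptic protein, at 3.53 and 1.26 against 2.11, 2.28 and 3.46, with up to 3.75 in the metformin libraries, above control 1. For Ttr, Mbp and Snap25 control 5 was the lowest of the 5 controls. The mean of the 15 brain genes in the table was 1.97 in control 1, 1.02 in control 5, 1.36 to 1.74 in controls 2, 3 and 4 and 1.59 to 2.18 in the metformin libraries. Of the 8 retina, lens and skin genes in the table none passed the filter and 7 were highest in control 1, among them Crybb2, a lens crystallin, at 2.29 against 0.01 to 0.19 in the other controls. The part of these other tissues in the contrast was not tested.

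The metformin libraries, which the rule did not use, lay nearer to controls 2, 3 and 4. Their mean was nearer to the mean of these controls for 676 of the 727 genes higher in controls 1 and 5 and for 415 of the 564 lower genes. Among the 51 higher genes for which it was nearer to controls 1 and 5 were Ckm, at 5.91 to 6.67, Eno3, Tpm2, a tropomyosin, at 3.88 to 4.62, and Pfkm, muscle phosphofructokinase, at 2.62 to 3.33 against 3.58 and 3.45 in controls 1 and 5 and 0.91, 0.85 and 1.29 in the others. The heart-specific troponins and myosins were not among them, with Tnnt2 at 0.12 to 0.60 and Myl7 at 0.09 to 0.12 in the metformin libraries, while the list of fast skeletal muscle markers had means of 3.48 to 4.04 there, 1.28 and 1.32 in controls 1 and 5 and 0.31 to 0.44 in controls 2, 3 and 4. In controls 1 and 5 the high members of that list included Pgam2, Eno3 and Sln, which is also in the atrial list. The fast troponin genes Tnnt3, Tnni2 and Tnnc2 stood there at only 0.08 to 0.56. Among the 149 lower genes for which the metformin mean was nearer to controls 1 and 5 were Igkc, the kappa light chain constant region, at 2.79 to 4.65, Cd79a, at 1.17 to 2.99, and Ptprc, at 0.75 to 2.29. These 3 genes stood at 5.71, 3.52 and 2.48 in control 5 and at 5.96 to 6.96, 4.07 to 4.89 and 3.34 to 3.71 in controls 2, 3 and 4. All 5 metformin libraries were thus below control 5 for these leukocyte genes.

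**Figure D5:**
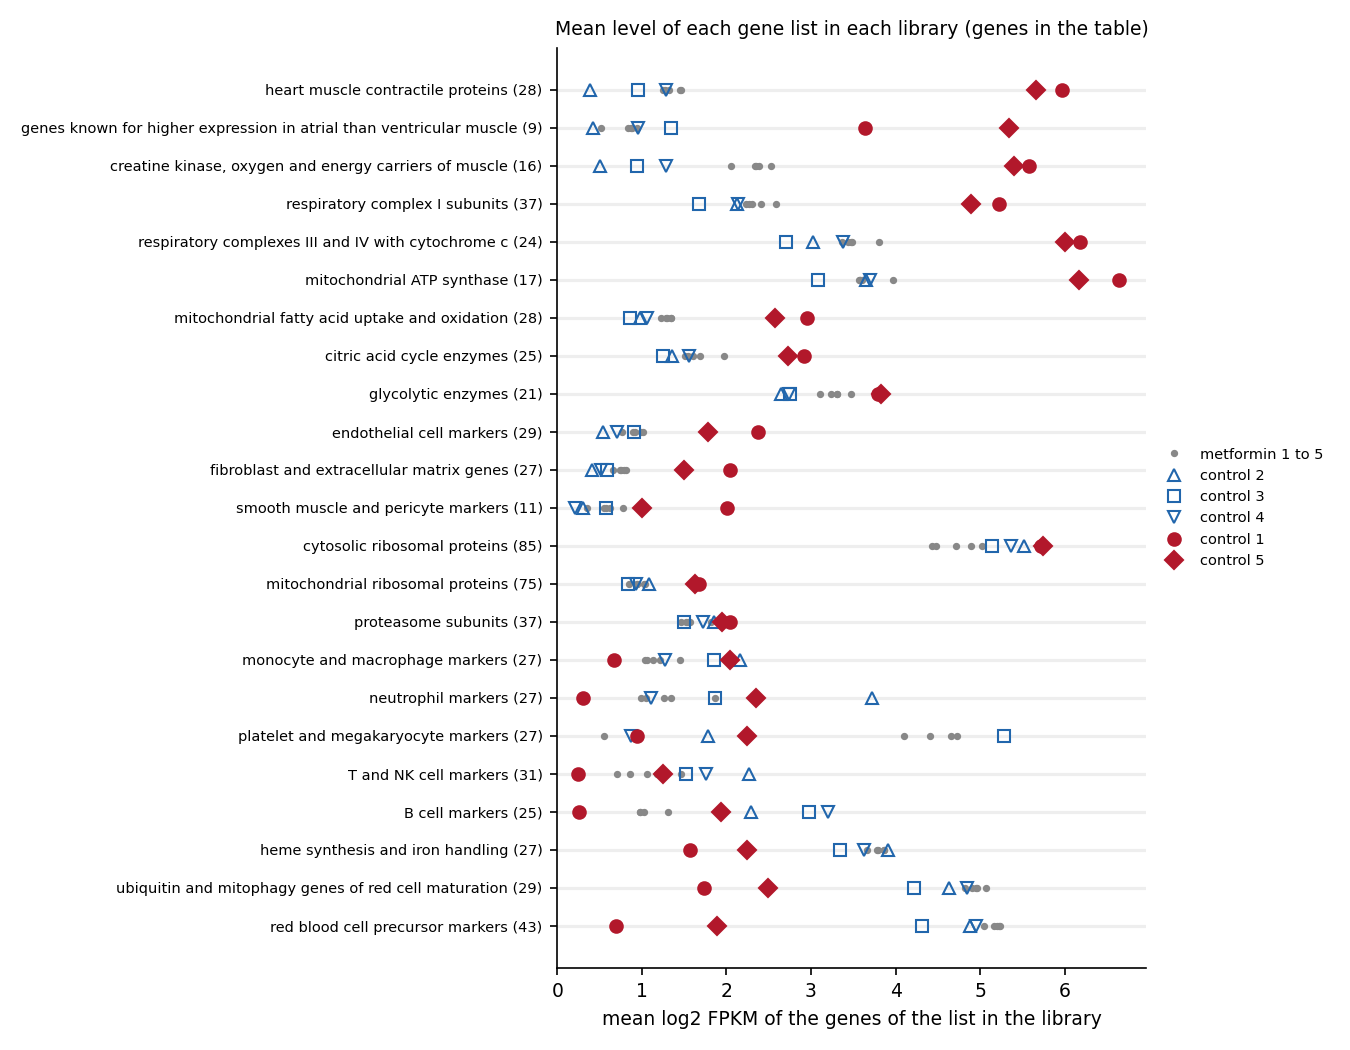
Mean log2 FPKM of the genes of 23 lists (number of genes in the table in parentheses) in each library, with controls 1 and 5 as filled red symbols, controls 2, 3 and 4 as open blue symbols and the metformin libraries as grey dots. Heart, mitochondrial and vessel wall lists lie to the right in both red libraries, red cell lists lie to the left in both, and for neutrophil and platelet genes control 5 lies among the other controls, with control 1 at 0.31 for neutrophil genes and at 0.94, above control 4 at 0.87, for platelet genes.

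With 2 libraries against 3, chosen by the values themselves, the sizes above describe these 5 libraries alone. Any comparison of metformin with all 5 controls holds both classes in its control group.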

How the data were processed

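The deposited table holds log2 FPKM values of 8904 genes in 10 blood libraries. According to the labels and methods, the authors aligned paired-end reads of Nextera XT libraries with TopHat2 to GRCm38 and computed expression with Cufflinks. The offset of the logarithm is not given in the sources used here and was assumed to be 1 where another offset was tried. Sorted values nearly coincide between libraries (largest SD 0.0399), as after quantile normalization. Symbols and positions are from GENCODE for GRCm38, in which 8899 identifiers matched and 5 did not. Genes with a value of at least 1 in 2 or more controls were kept. Calls required no overlap and a difference of class means of at least 1, computed in Python 3.11.15 with pandas 2.3.3 and checked on simulated data. There were 0 per-sample columns left unused. The split, the 35 lists, the 29 pairs and the rule for naming genes were chosen with earlier results of these data known. The rule names the markers, the 15 genes with the largest difference in each direction, up to 4 members of each list, both members of each pair and the 10 genes with the largest difference between controls 1 and 5 in each direction. Other genes were named after their values were seen, and some genes within this rule are not reported here. Differences are on the log2 (FPKM plus offset) scale, which understates changes of low genes. The alternatives were other filters, offset, centring, limits and leaving out each control.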

Additional observations from a re-analysis of the deposited data

Results flagged for a closer look

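Among 262 sets of 5 libraries checked, 22 had 1 library far from the others (gap to the nearest library as a share of the range above 0.71). For unselected, normally distributed values chance flags about 1 in 20 such sets. Some of these genes were named after their values were seen, and some sets hold tied values or values near the lowest. That rate is therefore no yardstick for the 22. In the controls, control 1 stood apart as the highest library for the mean of retina, lens and skin markers (share 0.877, mean 1.28), Crybb2 (0.920), Pgam1 (0.722) and Rps12l1 (0.890), and as the lowest for Rps12 (0.890), Cd79a (0.713) and Igkc (0.798). The Rps12 and Rps12l1 values come from a gene and its pseudogene, between which reads can be assigned either way, and why control 1 differs was not tested.

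In the metformin group, metformin 2 was the lowest library for the mean of platelet and megakaryocyte markers (0.849, mean 0.56), for Ppbp (0.876) and for the mean of atrial genes (0.756), and the highest for the means of ATP synthase (0.894), respiratory complexes III and IV (0.730) and proteasome subunits (0.711). Metformin 1 was the highest for Tnni3 (0.970, at 1.13), Nppa (0.886, at 0.36), Pln (0.864) and Ubb (1.0, the others being equal), and the lowest for the mean of brain markers (0.772). Metformin 4 was the lowest for the mean of interferon-induced and MHC class I genes (0.822) and the highest for Egfl7 (0.725) and Mhrt (0.730), and metformin 5 was the lowest for Mb (0.756).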

How the results depend on the processing

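The counts of genes higher in controls 1 and 5 and of genes higher in controls 2, 3 and 4 (727 and 564) were 741 and 566 without a filter and 717 and 574 after centring on the median. They were 282 and 265 with the filter raised to 3 in 2 or more controls, 1090 and 1019 with an offset of 0.1, 462 and 1104 after centring on the cytosolic ribosomal proteins, 261 and 223 with a difference of at least 2, 1485 and 1420 with no limit on the difference, and 466 and 244 with a gap between the nearest libraries of at least 1. With 1 control left out at a time the counts ranged from 337 to 773 and from 421 to 851. Without control 1, 327 of the 727 and 392 of the 564 genes were called again, and without control 5, 381 and 555. No gene called in 1 direction was called in the other under any of these settings. Of the 32 lists with at least 3 genes kept, 20 had a median difference above 0, and 18 to 20 did under the alternatives. The proteasome list and the common reference genes turned from 0.21 to -0.18 and from 0.25 to -0.15 when centred on the ribosomal proteins, and without control 1 the neutrophil list turned from -0.85 to 0.12, the monocyte and macrophage list from -0.43 to 0.09 and the liver list from 0.62 to -0.43, while without control 5 the brain list turned from -0.17 to 0.53. The cause was not tested. Leaving out control 1 or control 5 also changes which genes pass the filter. The 338 of the 727 genes that passed only through these 2 libraries then cannot pass. No paired analysis was possible because the results come from no test and both classes belong to 1 labelled group. Depth is unknown, and values near the lowest of a library are poorly resolved.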
